A study of Mus musculus with 4 samples.

Results

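Keratins are the intermediate filament proteins of epithelial cells, and the pattern of keratins that a liver cell makes tells its type. Hepatocytes build their filaments from the type II keratin Krt8 and its type I partner Krt18, while the cells that line the bile ducts, the cholangiocytes, add Krt7 and Krt19. Krt23 is a type I keratin that is known to be induced in stressed and fatty liver, and Krt20 is best known from the lining of stomach and intestine. Epcam, an adhesion protein of epithelia, Sox9, the transcription factor of duct and progenitor cells, and Spp1, which encodes the secreted protein osteopontin, are further markers that are used for bile ducts, and all of them are also made in the ducts of the pancreas, while Spp1 is made by activated macrophages too.

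These 9 genes (Krt7, Krt8, Krt18, Krt19, Krt20, Krt23, Epcam, Sox9 and Spp1) were measured by 13 probes of 60 bases among the 41037 probes with a value on every array. All gene probes whose array annotation carried one of the 9 names were taken. The set was chosen by gene name with measured values of the same contrast, the GALP over control ratios of Krt23 and Krt20, already known, so the ratios below are a description and carry no test. The accessions of 13 of 13 probes are paired with the same gene symbols in RefSeq (GRCm38.p6). The array's coordinates are those of mm9.

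The livers came from male C57BL/6J mice made obese by 14 weeks of a high-fat diet, bought at 8 weeks of age and weighing at least 40 g. GALP, galanin-like peptide, is a hypothalamic neuropeptide that lowers food intake and body weight. Porcine GALP (1–60) in saline with 5% α-cyclodextrin was given into the nose, 2 µL once daily for 11 days, and control mice on the same diet received saline. RNA of the 8 control mice was 1 pool, and RNA of the 8 GALP mice was divided by body weight change into a greater weight loss pool of 4 mice and a less weight loss pool of 4 mice. The control RNA shared 2 arrays with each GALP pool, with the dyes exchanged between them, which gave 4 two-colour arrays on 1 slide.

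The 2 arrays of a pool carry the same RNA and were averaged, so errors are the SD over the 2 GALP pools (n = 2), and the spread between control mice is in none of the values. A pool was formed by outcome and holds 4 mice, and single mice cannot be seen in it. In whole liver, fewer cells of a type and less RNA per cell cannot be told apart. Each array had 43379 gene spots, of which 232 to 319 were marked as outliers and left out, and 40.5% to 46.7% of the spots of a channel were well above background. The number of arrays and pools limits the precision of every value.

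The pools differed in transcripts of tissues other than liver. Several of the 9 genes are also made in such tissues, and the part of these transcripts in their values was not tested. Of 10 pancreas markers on the array, 9 had signal, and their median log2 ratio was -3.46 in the greater weight loss pool and 0.84 in the less weight loss pool. Their summed signal was 85899 to 112312 in the control channels, 7218 to 10640 in the greater weight loss pool and 157781 to 161422 in the less weight loss pool. Among 20 markers of stomach and intestine epithelium, 12 had signal, with a median log2 ratio of 0.18 in the greater and 0.02 in the less weight loss pool, and 6 of the 12 were higher in each pool than in the other. The gastric trefoil gene Tff2 had a log2 ratio of -3.79 in the greater and 0.68 in the less weight loss pool, and the gastrokine Gkn3 of -3.19 and 0.70. Lyz1, a lysozyme, was at 0.62 and 0.04. The intestinal trefoil gene Tff3, named after its values were seen, went the other way, at 1.42 in the greater and -1.63 in the less weight loss pool. The 10 hepatocyte markers all had signal, with a median log2 ratio of 0.03.

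Of the cholangiocyte markers examined, 8 had signal, while Cftr, Epcam and Sctr were not well above background in any channel. Bile duct transcripts were thus seen through some of their usual markers and not through others. The median log2 ratio of the 8 was -0.08, that is -0.19 in the greater and 0.01 in the less weight loss pool. Of the 8, 6 were higher in the less weight loss pool, Krt19 and Spp1 among them, and 2 in the greater.

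The probes are shown here because members of a gene family can share sequence. Capitals mark the longest run that a probe shares with any other probe of the 9 genes, which for Krt23 and Krt20 is the probe of Epcam. Probes were compared only with each other and not with transcripts, so the specificity of a probe was not tested. For Krt23 only the first 30 bases of the probe are shown.
Krt23 (chr11:99339393-99339452, minus strand), first 30 bases: tccgcgctaATGGGTGAGtctcgacggaaa
Krt8 (chr15:101827346-101827405, minus strand): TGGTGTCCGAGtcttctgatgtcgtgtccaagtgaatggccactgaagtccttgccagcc
Krt18 (chr15:101862341-101862400, plus strand): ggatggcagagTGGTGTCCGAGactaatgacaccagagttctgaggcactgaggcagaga
Krt19 (chr11:100002392-100002451, minus strand): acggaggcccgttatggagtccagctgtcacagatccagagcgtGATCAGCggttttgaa
Krt20 (chr11:99289776-99289835, minus strand): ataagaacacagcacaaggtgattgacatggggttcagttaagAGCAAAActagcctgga

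The longest run between any of the 78 pairs of probes was 11 bases of 60, shared by the Krt8 probe shown and the Krt18 probe, and the median over pairs was 6. The Krt23 probe shared at most 6 bases in a row with a probe of another keratin of the set, and 9 with the probe of Epcam. The Krt20 and Krt23 probes lie 49558 bases apart in the type I keratin cluster of chromosome 11, where RefSeq lists the genes next to each other. The Krt8 and Krt18 probes shown lie 34936 bases apart on chromosome 15.

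Krt23 was the single member whose expression increased by a strict reading of the study's methods, which give the fold limits, the p-value threshold and the wish for changes common to both groups. A probe met this rule when it was more than 1.5-fold higher, or less than 0.75-fold for a decrease, in both pools, in the same direction on all 4 arrays, and with the scanner software's p-value under 0.01 on every array. That every array had to pass was set here. Of the 13 probes 1 met the rule as higher and 0 as lower. Over the whole array 24 of 41037 probes were higher (0.0585%) and 54 were lower (0.132%). With the p-value limit on at least 1 array of each pool, 53 were higher and 167 lower, and the members gave 1 and 0 as before. Since this contrast was known when the set was chosen, nothing follows from the count of 1. Limma, fitted to the 2 pool ratios with 1 residual degree of freedom, found 0 of 41037 probes (0%) at a Benjamini-Hochberg adjusted p under 0.05, while unadjusted p-values under 0.05 were found for 2049 probes on the higher and 2710 on the lower side.

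Krt23 had processed signals, after background subtraction and dye normalisation, of 880, 812, 827 and 587 in the control channels. On the same arrays the GALP channels read 1727 and 1838 in the greater weight loss pool, and 1901 and 1743 in the less weight loss pool. Every GALP signal lay above every control signal, and the lowest control signal was on the less weight loss array with GALP in Cy3.

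The log2 ratios of Krt23 were 0.97 and 1.18 in the greater weight loss pool and 1.20 and 1.57 in the less weight loss pool. The mean was 1.23 ± 0.22 (SD, n = 2 pools), or 2.35-fold, with 2.11-fold in the greater and 2.61-fold in the less weight loss pool. All arrays were above the 1.5-fold line, which lies at 0.58 on the log2 scale. Among the 14444 probes well above background in all 8 channels, Krt23 had the 4th highest mean log2 ratio, and 3 of the 24 probes that met the rule as higher had a larger one.

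**Figure D1:**
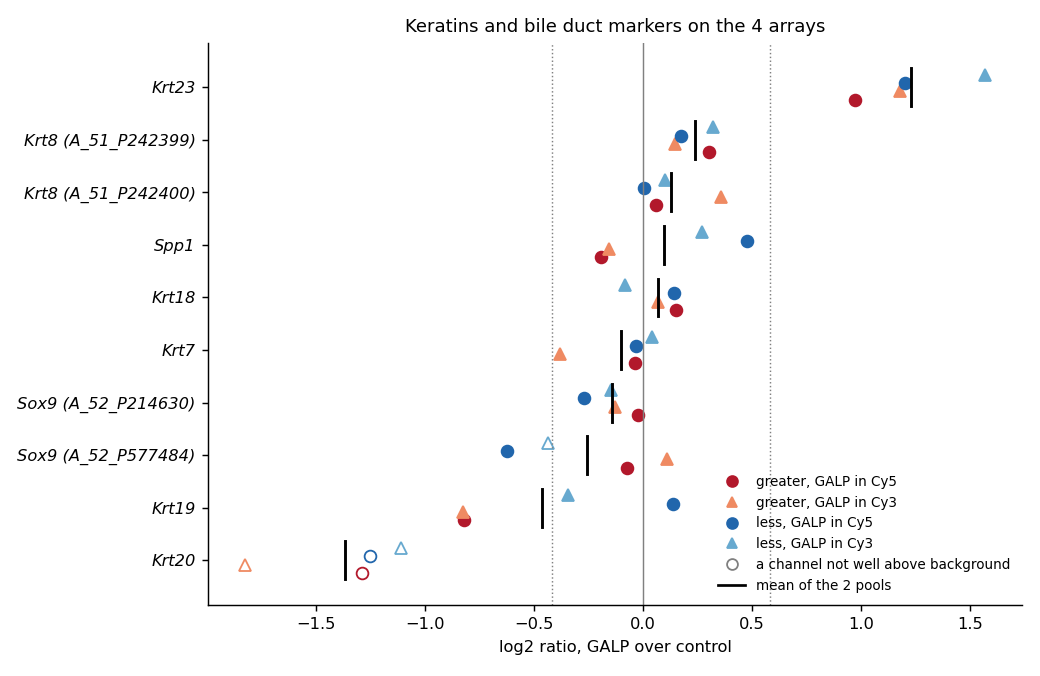
Log2 ratio of GALP over control (horizontal axis) for the 10 probes of 8 members with signal in at least 1 channel; circles are arrays with GALP in Cy5, triangles arrays with GALP in Cy3, red shades the greater and blue shades the less weight loss pool, open symbols arrays on which a channel was not well above background, black bars the mean of the 2 pools, and dotted lines 1.5-fold and 0.75-fold. The 4 values of Krt23 lie between 0.97 and 1.57, apart from all other members; the 4 open values of Krt20 lie between -1.82 and -1.11.

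The probes whose 4 array values lay nearest to those of Krt23 (Euclidean distance in log2 ratio over 4 arrays, among probes with signal in all 8 channels) were Sult1e1, an estrogen sulfotransferase, at 0.60, Nrg4, a secreted growth factor, at 0.61, Acot3, an acyl-CoA thioesterase, at 0.62, Mt1, a metallothionein, at 0.62, and Osbpl5, a lipid transfer protein, at 0.65. Their mean log2 ratios were 1.12 ± 0.49, 1.01 ± 0.17, 1.07 ± 0.12, 1.28 ± 0.58 and 1.01 ± 0.30 (SD, n = 2 pools), and all 5 met the rule as higher. The likeness is one of size over 4 arrays and 2 pools. The 5 probes were picked for ratios near those of Krt23, so that they passed the fold limits follows from the choice.

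Krt8 and Krt18, the hepatocyte pair, stayed within 0.75-fold to 1.5-fold on every array. Krt8 had 2 probes. For the probe shown above, the control signals were 23240, 19184, 22475 and 20640 and the GALP signals 28693, 21275, 25406 and 25814. Its GALP signal was the higher on each array.

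Its log2 ratios were 0.30 and 0.15 in the greater and 0.18 and 0.32 in the less weight loss pool, with a mean of 0.24 ± 0.02 (SD, n = 2). The second Krt8 probe (A_51_P242400) gave 0.06, 0.36, 0.00 and 0.10 and a mean of 0.13 ± 0.11. The 2 arrays of the greater weight loss pool thus differed more on the second probe than the pools did. Krt18 gave log2 ratios of 0.15, 0.07, 0.14 and -0.08, and a mean of 0.07 ± 0.06. Its signal was 9748 to 11743 in the control and 10210 to 12950 in the GALP channels, so the groups overlapped. The nearest probes by the same distance were Slc25a33 for Krt8 and Prr14l for Krt18, at 0.08 and 0.03.

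Krt19, the classical duct keratin, differed between the pools. Its control signals were 147 and 82.6 on the greater weight loss arrays and 74.5 and 91.0 on the less weight loss arrays, a 1.97-fold range for RNA of 1 pool. The GALP signals were 82.9 and 46.7 in the greater and 81.9 and 71.7 in the less weight loss pool. GALP and control signals overlapped across arrays, and within each greater weight loss array GALP was the lower.

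The log2 ratios of Krt19 were -0.82 and -0.82 in the greater weight loss pool, that is 0.57-fold, and 0.14 and -0.34 in the less weight loss pool. The mean was -0.46 ± 0.51 (SD, n = 2), so the mean did not exceed the spread between pools, and the scanner software's p-value was under 0.01 on 2 of 4 arrays. The less weight loss pool was higher than the greater by 0.72 on the log2 scale, 0.96 with GALP in Cy5 and 0.48 with GALP in Cy3. Of the 14444 probes with signal in all channels, 1.16% had pools at least this far apart, and the median gap was 0.10. With 1 pool a group this difference was not tested. The pancreas markers, low in the greater and high in the less weight loss pool as given above, moved the same way between pools. So did 6 of the 8 cholangiocyte markers with signal, Krt19 among them, while 2 were higher in the greater weight loss pool. The part of either tissue in the Krt19 values was not tested. The probe nearest to Krt19 was Nim1k, at a distance of 0.19.

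Krt7, the partner of Krt19 in ducts, had 2 probes, of which A_52_P410685 was not well above background in any channel. The other read 143, 132, 151 and 126 in the control and 139, 102, 148 and 130 in the GALP channels. Signals of both groups overlapped. Its log2 ratios were -0.04, -0.38, -0.03 and 0.04, with a mean of -0.10 ± 0.15 (SD, n = 2), and the nearest probe was Rmi2 at 0.08. The value that stands apart was that of the greater weight loss pool with GALP in Cy3.

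Krt20 stood well above background on 3 of the 4 arrays in the control and on 0 of the 4 with GALP. The control signals were 40.0, 38.7, 54.0 and 58.2 and the GALP signals 16.4, 10.9, 22.7 and 27.0. All GALP signals lay below all control signals, but at these levels only a bound can be given. Set against the lowest signal well above background, Krt20 was at least 1.53-fold lower with GALP as a mean over all 4 arrays. Single arrays gave bounds of 1.79-fold and 1.40-fold in the greater and 1.78-fold and 1.22-fold in the less weight loss pool. On the array with 1.79-fold the control itself was not well above background. Over the 3 arrays on which the control was well above background, a choice made after seeing the data, the mean bound was 1.44-fold. That is 1.40-fold on 1 array of the greater and a mean of 1.48-fold over the 2 arrays of the less weight loss pool. The measured log2 ratios were -1.29, -1.82, -1.25 and -1.11, and the scanner software's p-value was under 0.01 on 1 array, so that Krt20 did not meet the rule.

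Beside Krt20, 2 genes of gastric epithelium were lower in both pools. Gkn2, a gastrokine, was at least 8.51-fold lower with GALP. Tff1, a trefoil factor, stood well above background with GALP on only 1 array. Its measured log2 ratios were -3.63 in the greater and -3.64 in the less weight loss pool. In at least 1 pool the GALP signal was thus at background on both arrays, so the likeness of the 2 values cannot be read. Gkn2 and Tff1 met the rule as lower, the only 2 probes of the stomach and intestine list to do so. The whole list summed to 27998 to 37396 in the control, 23034 to 28259 in the greater and 32593 to 32609 in the less weight loss channels. The defining transcription factors Cdx1 and Cdx2 and the pepsinogen Pgc were among the 8 genes not well above background in any channel. The part of these transcripts in the Krt20 value was not tested.

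**Figure D2:**
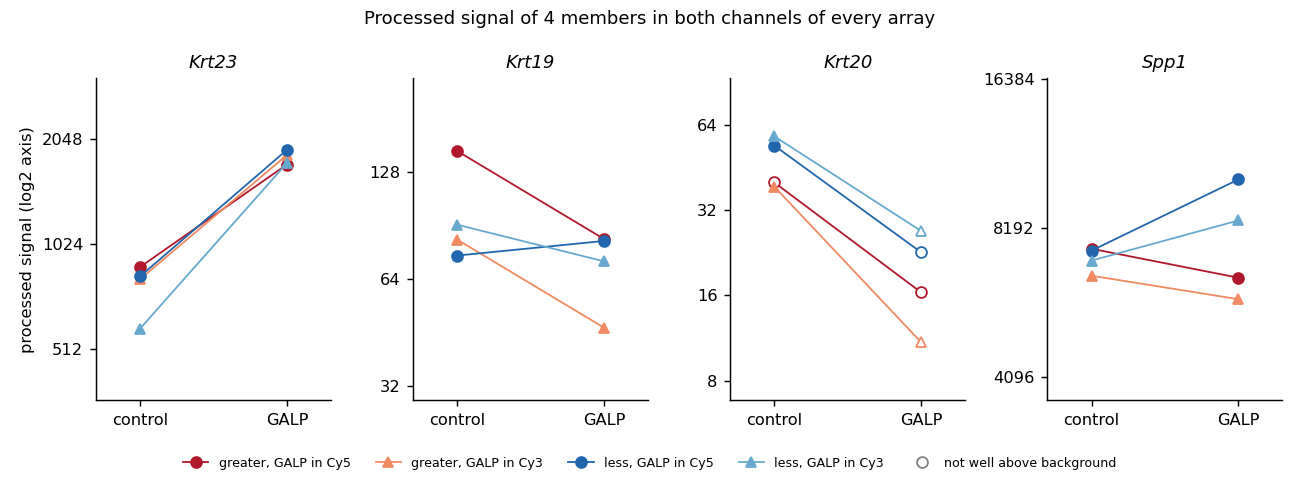
Processed signal (vertical axis, log2 scale, arbitrary scanner units) of Krt23, Krt19, Krt20 and Spp1 in the control and GALP channel of each of the 4 arrays, joined by a line per array; open symbols were not well above background. Krt23 lines all rise, from 587 to 880 in the control up to 1727 to 1901 with GALP; Spp1 lines fall on the greater weight loss arrays and rise on the less weight loss arrays.

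Epcam was not well above background in any of the 8 channels, with signals of 7.85 to 23.8 in the control and 10.1 to 18.1 in the GALP channels, so no ratio is given. Sox9 had 3 probes. A_51_P451606 was not well above background in any channel. A_52_P214630, spotted 10 times on each array, read 94.2, 78.2, 76.2 and 75.3 in the control and 92.8, 71.6, 63.2 and 68.0 in the GALP channels.

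The log2 ratios of this Sox9 probe were -0.02, -0.13, -0.27 and -0.15, with an SD over spots of 0.19 to 0.25 within an array. All 4 were below 0, with a mean of -0.14 ± 0.09 (SD, n = 2). The SD over spots is that of single spots and not the error of this mean. The nearest probe was Rab8a at 0.05. The third Sox9 probe (A_52_P577484), well above background in 7 of 8 channels, gave -0.07 and 0.11 in the greater and -0.62 and -0.44 in the less weight loss pool. The 2 Sox9 probes with signal thus lay on the same side of 0 in the less weight loss pool, at -0.21 and -0.53, and on either side in the greater, at -0.07 and 0.02.

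Spp1 was measured by 10 spots on each array. Its control signals were 7423 and 6548 on the greater and 7359 and 7026 on the less weight loss arrays, a 1.13-fold range, the narrowest of the 13 probes. The GALP signals were 6488 and 5870 in the greater and 10246 and 8468 in the less weight loss pool. All control signals lay above both of the greater and below both of the less weight loss pool, so the 3 pools did not overlap.

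The log2 ratios of Spp1 were -0.19 and -0.16 in the greater and 0.48 and 0.27 in the less weight loss pool, and the SD over spots within an array was 0.03 to 0.08. The mean of 0.10 ± 0.39 (SD, n = 2) was smaller than the spread between pools. The less weight loss pool was higher by 0.55, 0.67 with GALP in Cy5 and 0.43 with GALP in Cy3. Pools at least this far apart were found for 2.49% of the 14444 probes, and 834 of them (5.77%) had the pools on opposite sides of 0 on all 4 arrays as Spp1 did. The nearest probe was Garem1 at 0.12.

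Markers of macrophages, which can make osteopontin, were measured beside Spp1. All 12 had signal, with a median log2 ratio of 0.54 in the greater and 0.43 in the less weight loss pool, and 8 were above 0 on all 4 arrays. The share of all probes above 0 on all 4 arrays is not given here, so nothing is read from the count of 8. Their summed signal was 25103 to 28665 in the control, 30362 to 37031 in the greater and 32118 to 35380 in the less weight loss channels. Marco, a scavenger receptor, met the rule as higher (0.87 ± 0.25, SD, n = 2). Gpnmb, a glycoprotein of lipid-laden macrophages, was at 2.89 in the greater and 0.94 in the less weight loss pool, and Lgals3 at 1.17 and 0.51. Of the 12 macrophage markers 5 were higher in the less weight loss pool, as Spp1 was, and 7 in the greater. All 9 pancreas markers with signal were higher in the less weight loss pool. The part of either cell type in the Spp1 values was not tested.

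**Figure D3:**
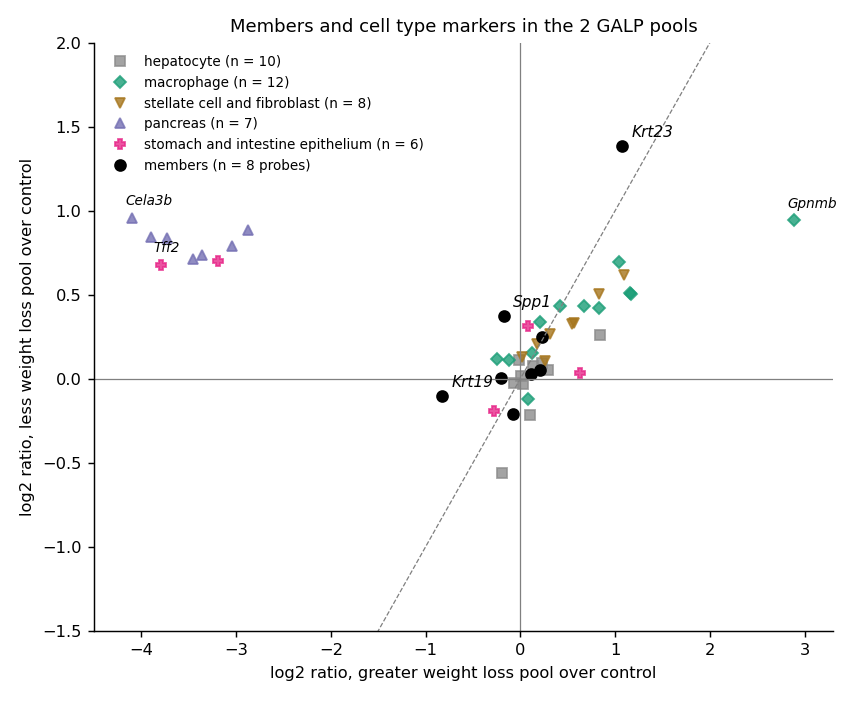
Log2 ratio over control in the greater (horizontal) and less weight loss pool (vertical) for 8 member probes and the markers of 5 tissues with signal in all 8 channels; the dashed line marks equal values. The 7 pancreas markers lie at the left above 0, while Krt23 lies near the line at 1.08 and 1.39, Krt19 at -0.82 and -0.10, and Spp1 at -0.18 and 0.37.

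The genes that work beside the members were taken as 5 lists, and their counts are given beside the shares over the array of 0.0585% higher and 0.132% lower. The median log2 ratio over all 16359 gene names with signal was 0.01. Of the 34 further bile duct genes 25 had signal, 0 met the rule, and the median was 0.02. Pkhd1, the ciliary protein fibrocystin, was at -0.41 ± 0.24 (SD, n = 2), Onecut1, a transcription factor of duct formation, at 0.29 ± 0.46, and Ezr, which links membrane to actin at the apical side, at 0.24 ± 0.07. Pkhd1 was below 0 on 3 of 4 arrays, and the SD of Onecut1 exceeded its mean.

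Of 15 keratin partners, the desmosome and linker proteins that anchor keratin filaments and the proteins found with them in Mallory-Denk bodies, 13 had signal, 0 met the rule and the median was 0.05. The linkers Plec (plectin) and Ppl (periplakin) had the highest means, at 0.45 ± 0.04 and 0.43 ± 0.04 (SD, n = 2), and Tchp, which binds Krt8 and Krt18, was at 0.20 ± 0.14. For Plec the pools were alike while the arrays were not, with log2 ratios of 0.58, 0.27, -0.01 and 0.98, and a second Plec probe with signal gave 0.03. The 4 values of Ppl were 0.36, 0.44, 0.46 and 0.46.

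Of 20 genes of the Notch and YAP pathways, which act on Sox9 in duct cells, 14 had signal, 1 met the rule as lower and the median was 0.17. The gene was Ccn1, a matrix protein and YAP target listed as Cyr61 in older annotation, with log2 ratios of -0.92, -0.73, -0.60 and -0.80 and a mean of -0.76 ± 0.09 (SD, n = 2). Hey1, a Notch target, gave 0.82, 0.45, 0.51 and 0.34, with a mean of 0.53 ± 0.15, and Tead1, the DNA-binding partner of YAP, 0.27 ± 0.17. Hey1 was thus above 0 on all arrays, and did not meet the rule.

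All 10 osteopontin receptors (Cd44 and integrin subunits) had signal, 0 met the rule and the median was 0.11. Cd44 was at 0.36 ± 0.01 (SD, n = 2), while a second Cd44 probe with signal gave 0.09. The integrin subunits Itga9 and Itgav were at 0.27 ± 0.01 and 0.18 ± 0.03. Their pools were alike while the dye orientations were not. Itgav gave 0.44 and 0.48 with GALP in Cy5, and -0.12 and -0.08 with GALP in Cy3. Itga9 gave 0.44 and 0.42 with GALP in Cy5, and 0.12 and 0.10 with GALP in Cy3. Of 40 further keratins 13 had signal in some channel, 1 of them, Krt10, in all 8. Krt10 was at -0.13 ± 0.14, and 0 keratins of this list met the rule.

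**Figure D4:**
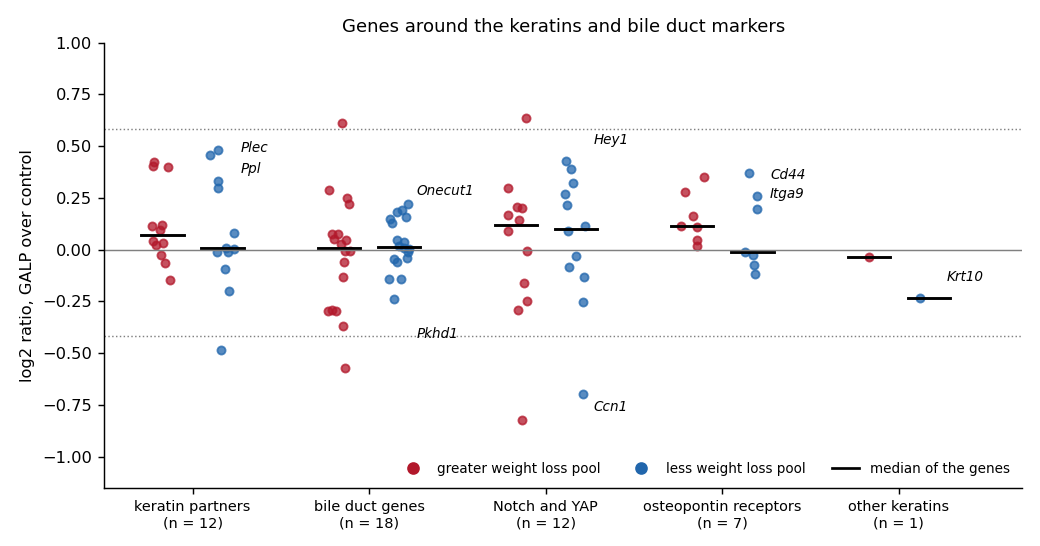
Log2 ratio of GALP over control (vertical axis) for the genes of 5 lists with signal in all 8 channels; red points are the greater and blue points the less weight loss pool, black bars the median over genes, dotted lines 1.5-fold and 0.75-fold, and names mark the 2 genes with the largest absolute mean of each list. Ccn1 lies below the lower line in both pools, and no gene lies above the upper line in both.

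Stellate cell and fibroblast markers and those of the mesothelium, the liver's surface layer, which also makes several keratins, were the last groups measured beside the members. All 10 stellate cell and fibroblast markers had signal, and the median log2 ratio was 0.43 in the greater and 0.24 in the less weight loss pool. Above 0 on all 4 arrays were 6, a count given without the share over all probes, so nothing is read from it. Timp1, a protease inhibitor, was at 0.85 ± 0.33 (SD, n = 2), and the collagens Col1a1 and Col3a1 at 0.66 ± 0.23 and 0.45 ± 0.17. Of 6 mesothelial markers 3 had signal. Msln was at -0.17 in the greater and -0.90 in the less weight loss pool, and the defining markers Upk1b, Upk3b and Wt1 were not well above background in any channel. Their part in the keratin values was not tested.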

How the data were processed

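Two-colour Whole Mouse Genome 4x44K arrays were read as scanner output. Per the file headers, the authors used Feature Extraction 12.0.3.1 (GEO's processing notes name 11.0.1.1), which subtracts background, normalises the dyes and gives processed intensity, a log10 ratio of Cy5 over Cy3 and a p-value from its error model for each spot. The deposited log10 ratios were given the sign that puts GALP in the numerator, then multiplied to the log2 scale. Dye orientation was taken from the labels, which put a weight loss group on the control channel too, while the methods describe 1 control pool. Whether the mice of a pool were equally represented is not given in the sources used here.

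Control spots and spots with outlier marks were left out, spots of a probe were averaged, and the p-value of a repeated probe is its median over spots. Probe 60-mers and mm9 coordinates came from the same files, and symbols were checked in a RefSeq table (GRCm38.p6), of which no coordinates were used. A bound was the mean of processed signals against the higher of the probe's own signal and the lowest signal well above background, per array. For each gene of a list the probe with the highest mean signal was used, and genes at background everywhere were left out of medians. The deposited series table of log10 ratios served as an alternative: it differed from the scanner files by more than 0.003 on the log2 scale only where these hold 0.

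Named genes were all members, the genes of each list or marker list that met the rule, or the 3 of largest absolute mean with signal in all channels where fewer than 3 did, and the nearest probes (5 for Krt23, 1 for other members). Members, lists and rules were chosen with earlier results of these data known. The rule, a strict reading of the methods, recovered 198 of 200 changes of 1.5 on the log2 scale planted in simulated data over 41037 probes, with 0 false calls. Limma recovered 0 of 200 changes of 3 over 41037 probes. Restricted to 15712 probes with signal on every array it recovered 169, with 2 false calls. The limma simulation drew the 2 pools independently, while the real pools share 1 control pool. Its false calls therefore do not cover errors that come from the control pool.

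Tools were Python 3.11.15, pandas 2.3.3, R 4.3.3 and limma 3.58.1. Alternatives were normexp (offset 50) with loess, median centring, keeping outlier spots, 1 dye orientation, 1 pool, the series table, other p-value rules and a filter on dim probes.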

Additional observations from a re-analysis of the deposited data

Results flagged for a closer look

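Spp1 was singled out because both arrays of the greater weight loss pool lay below 0 (-0.19 and -0.16 on the log2 scale) and both arrays of the less weight loss pool above 0 (0.48 and 0.27). The less weight loss pool was higher by 0.55 (log2). The difference was not tested, since each pool is 1 sample and both were set against the same control pool. Of 14444 probes with signal in all 8 channels, 834 (5.77%) showed such a split. Groups of samples were too small to look for outlying samples.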

How the results depend on the processing

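Krt23 met the rule as higher under all 11 alternatives, and its mean log2 ratio ranged from 0.95 to 1.39. Most alternatives could not undo a call that every array had passed, since they drop arrays, relax the p-value limit or leave its ratios unchanged. Only normexp with loess and median centring could change the call, and both kept the deposited p-values. Of 72 recomputed member values, 67 kept their sign and 64 stayed within 1 SD of the pools. Many of these values could not have left that range. The value of either pool alone lies within 1 SD by arithmetic, since the mean and SD come from the pools themselves. The series table repeated the main values, and keeping outlier spots could change only probes with repeated spots. The count within 1 SD is therefore not a measure of stability, and the count of kept signs is so only in part. The 5 sign changes concerned Krt18, Krt7, the Krt8 probe A_51_P242400, the Sox9 probe A_52_P577484 and Spp1, none of which met the rule.

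With the greater weight loss pool alone, Krt19 met the rule as lower, so that leaving out 1 pool gave 0 to 1 members lower and 1 higher, 96 to 122 probes higher and 150 to 162 lower over the array. Without a p-value rule Krt20 was the 1 member lower, beside 154 probes higher and 360 lower. The mean bound of Krt20 was 1.44-fold in place of 1.53-fold over the 3 arrays with the control well above background, chosen after seeing the data. A p under 0.01 on at least 1 array of each pool gave 53 and 167 probes, normexp with loess 9 and 26, arrays with GALP in Cy5 134 and 140, and arrays with GALP in Cy3 140 and 156. The other 4 alternatives gave 24 and 54.

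Limma found 0 probes with an intensity trend, 1 with the filter on dim probes and 106 with 4 arrays and the pool as a random block, where the arrays of a pool had an estimated correlation of -0.39. The median of the Notch and YAP list was 0.13 with all probes of a gene and 0.070 with all genes kept, and that of the bile duct list 0.062 with all probes of a gene. Causes of these shifts were not tested.

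The labels give the pools no shared replicate numbers, so nothing was paired beyond the GALP and control RNA of each array. Arrays of the 2 pools were matched by dye orientation only. With 2 pools and 1 control pool, animal spread is not measured. Krt7, Krt19, Krt20, Sox9 and Epcam lie near or below background, where ratios are least certain.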
